A study of Mus musculus with 8 samples.

Results

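A set of 10 genes that mark inhibitory interneurons of the hippocampus were followed in mice given the drug FTY720 or saline. They are Gad1, Gad2, Lhx6, Sst, Pvalb, Npy, Htr3a, Vip, Cnr1 and Reln, and every array probe set annotated to 1 of them and to no other gene was taken. This gave 12 probe sets for 10 of 10 genes, 2 each for Gad1 and Lhx6 and 1 each for the other 8 genes, out of 22626 probe sets and 12393 genes in all. The animals were 8 male SCID mice aged 12 weeks, a strain without mature lymphocytes, and all of them went through contextual fear conditioning. The FTY720 group (4 mice, numbered 1, 4, 5 and 6) received 1 mg/kg by mouth on 3 days. The vehicle group (4 mice, numbered 13 to 16) received saline by mouth on 3 days. Hippocampi were taken 17 hours after dosing ended, 1 hour after a test of memory consolidation, and each mouse gave its own RNA and its own Affymetrix array. Values are log2 probe set levels, so a difference of 1 is a doubling, and levels of different probe sets are not compared with each other.

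Interneurons are the GABA-releasing cells of the hippocampus, which restrain and time the firing of the excitatory pyramidal and granule cells. Most arise in the medial or caudal ganglionic eminence of the embryonic forebrain. Those of medial origin depend on the transcription factor Lhx6 and include the parvalbumin and somatostatin cells. Those of caudal origin commonly carry the serotonin-gated channel Htr3a and include the VIP cells and the cholecystokinin basket cells, which hold much cannabinoid receptor Cnr1. FTY720 (fingolimod) resembles sphingosine, is phosphorylated in tissue and then binds receptors of sphingosine-1-phosphate. In RNA of whole tissue, fewer interneurons and less RNA per interneuron cannot be told apart.

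The promoters of the peptide genes Sst and Vip are shown because both are textbook targets of cAMP signalling, which learning engages. RefSeq windows (build GRCm38.p6) were found for 9 of the 10 genes, 14 windows in all, and 250 bases before each transcript start were searched on both strands. The last 100 bases before the start are printed 5′ to 3′ on the gene's own strand. Capitals mark the cAMP response element TGACGTCA or its shorter core TGACG, and the TATA box TATAAA.
Sst, chr16:23890845-23890944, minus strand: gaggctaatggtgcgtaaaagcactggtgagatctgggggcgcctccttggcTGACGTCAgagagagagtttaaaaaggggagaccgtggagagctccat
Vip, chr10:5639118-5639217, plus strand: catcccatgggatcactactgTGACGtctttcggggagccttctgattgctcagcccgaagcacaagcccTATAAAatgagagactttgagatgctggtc
The full element begins 48 bases before the Sst start. It reads alike on both strands and occurs in 1.55% of the 32851 RefSeq windows of this length. Its core TGACG, which the full element contains, lies in 17.8% of windows, and among these genes in those of Sst, Vip and Gad2. In the Vip promoter the core begins 79 bases and the nearest TATAAA 30 bases before the start. TATAAA was present in 12.4% of all windows and here in those of Vip and Gad1. The GC box GGGCGG, present in 32.7% of all windows, occurred 6 times before Reln and 5 times in 1 of 3 windows of Cnr1. Those windows were rich in G and C, the letters of this box, at 80.0% and 79.2%. The median over all windows was 52.4%. The GC box also occurred in windows of Lhx6, Gad1 and Npy. The sequence CACGTG (6.02% of all windows) was found before Reln and in 1 window of Cnr1, and TAATTA (4.84%) in none of the 14. These matches are letters in a window, not measured binding.

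The arrays carried hippocampal markers, with mean levels of 9.87 for Wfs1 of CA1 pyramidal cells and 9.11 for Dsp of dentate granule cells. Not all such markers were bright. Those listed for pyramidal cells ran from 4.44 (Iyd) to 11.15 (Nrgn), and those for granule cells from 3.29 (Prox1) to 11.06 (Calb1). Vehicle 15 and vehicle 16 had the lowest median correlations with the other arrays, 0.9944 and 0.9957. The other 6 lay between 0.9968 (vehicle 14) and 0.9976 (vehicle 13). A list of striatum markers (10 of 14 measured) stood 1.36 above its mean over the mice in vehicle 15 and 0.28 above it in vehicle 16. The other 6 mice lay between -0.34 and -0.21. Thalamus and habenula markers (11 of 14) stood 1.32 above their mean in vehicle 15, and neocortex markers (11 of 12) 0.56 above theirs in vehicle 16. The thalamus list was not uneven in that mouse alone: FTY720 mice ranged from -0.42 to -0.24, against 0.06, 0.29, 1.32 and -0.33 in vehicle 13 to 16. With all mice its 11 genes were lower under FTY720, and 6 had an unadjusted p under 0.05, where 2.70% of all genes were lower at that p. Without vehicle 15, Calb2 of this list stood at 0.13 and Tac2 at -0.03. Oligodendrocyte markers (10 of 13 measured, such as the myelin protein gene Mbp) were all lower in FTY720 mice at that p, with a median difference of -0.33. Their list means spanned -0.31 to -0.08 over the FTY720 mice and -0.05 to 0.35 over the vehicle mice. Choroid plexus markers (8 of 10) were uneven in both groups. Their list means were 0.97, -1.24, 0.65 and -1.35 in FTY720 mice, against -0.38, 0.84, 1.49 and -0.98 in vehicle mice. Dentate granule markers (5 of 10) spanned -0.41 to 0.29 in FTY720 mice and -0.32 to 0.37 in vehicle mice. The Gapdh 5′ minus 3′ control difference, a measure of RNA integrity, was between -1.08 and -0.80 in FTY720 mice. In vehicle mice 13 to 16 it was -1.09, -1.18, -1.07 and -1.46. The same measure for actin spanned -2.44 to -2.19 in FTY720 mice and -2.74 to -2.44 in vehicle mice. Vehicle 13 and 14 also lay below every FTY720 mouse on both controls, so leaving out vehicle 15 and 16 does not remove this group difference. Results are given with and without vehicle 15 and 16, and the part these features play in any result was not tested.

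Of the 12 interneuron probe sets, 5 were higher in FTY720 mice at an unadjusted p under 0.05 and none was lower, namely those of Htr3a, Cnr1, Lhx6, Sst and Reln. Over all 22626 probe sets, 6.76% reached that p, 4.03% higher and 2.73% lower. With limma and adjustment over all probe sets, none of them reached 0.05, and the lowest adjusted p of any probe set was 0.483. For 4 of the 12, Htr3a, Cnr1, Lhx6 and Sst, all FTY720 values lay above all vehicle values, against 4.38% of all probe sets without overlap in either direction, 2.65% with FTY720 higher and 1.74% with FTY720 lower. The median difference of the 12 was 0.19, with 9 above and 3 below 0, where all probe sets had a median of 0.01. The genes were chosen with earlier results of these arrays known, so these shares describe the set and do not test it. The oligodendrocyte and thalamus lists, lower in FTY720 mice as given above, moved with the treatment groups too, as did the RNA controls. Their part in these differences was not tested. Without vehicle 15 and 16, 7 of the 12 were at an unadjusted p under 0.05 (5.41% of all probe sets) and 7 did not overlap (14.2%). The members at that p changed: Reln was lost, and Gad2, Vip and the brighter Gad1 probe set were gained.

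**Figure D1:**
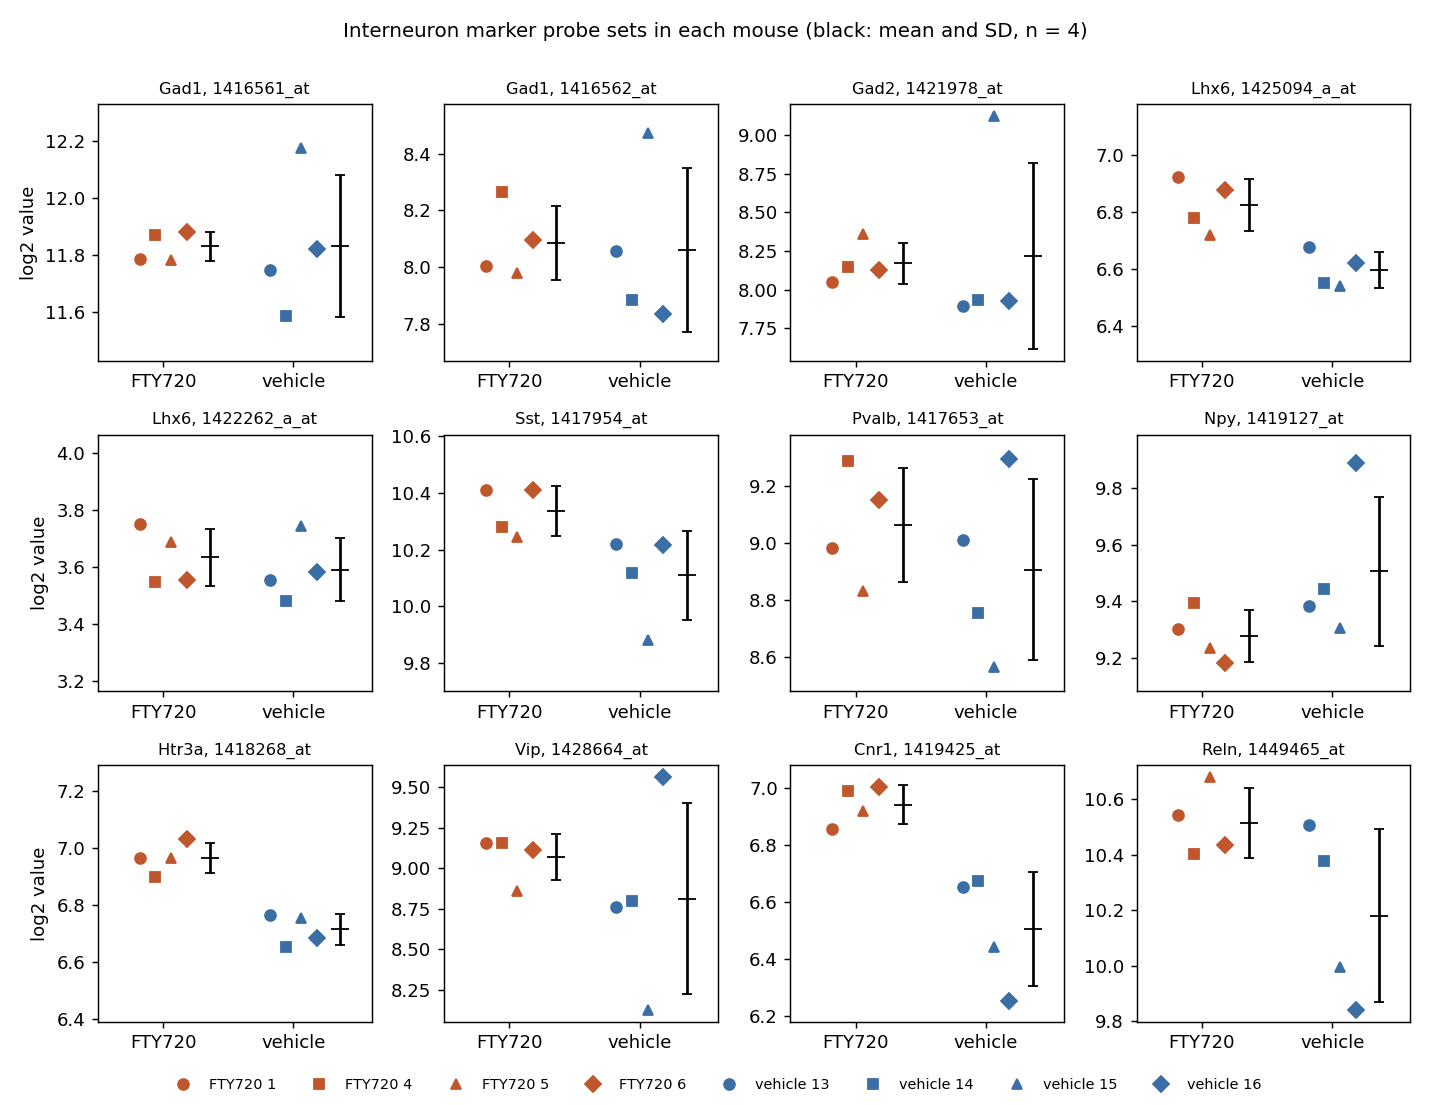
Log2 value (y axis) of each interneuron probe set in each FTY720 mouse (orange) and vehicle mouse (blue), with the mean and SD of 4 mice in black and a separate y range per panel. FTY720 mice lie above all vehicle mice for Htr3a, Cnr1, Sst and the brighter Lhx6 probe set, while vehicle 15 or 16 lies far from the rest for Gad1, Gad2, Npy and Vip.

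Gad1 and Gad2 encode the enzymes that make GABA from glutamate and are shared by all interneurons, Gad1 serving general synthesis and Gad2 mainly the nerve terminal. Gad1, by the brighter probe set (1416561_at), was 11.79, 11.87, 11.78 and 11.88 in FTY720 mice, against 11.75, 11.59, 12.18 and 11.82 in vehicle mice 13 to 16. The groups overlapped, and vehicle 15 was the highest of the 8 mice. The difference was -0.0012 (SE 0.11, 95% interval -0.24 to 0.24, limma adjusted p = 0.999). The other Gad1 probe set (1416562_at) also had its highest value in vehicle 15, 8.47, with 7.98 to 8.26 in FTY720 mice and 7.84 to 8.06 in the other vehicle mice. It differed by 0.02 (SE 0.13).

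Gad2 was 8.05, 8.14, 8.36 and 8.12 in FTY720 mice, against 7.89, 7.93, 9.12 and 7.92 in vehicle mice. All FTY720 mice lay above vehicle 13, 14 and 16 and below vehicle 15. With all mice the difference was -0.05 (SE 0.24, 95% interval -0.59 to 0.50, limma adjusted p = 0.981), an interval that leaves its direction unsettled. Without vehicle 15 it was 0.25 (SE 0.07), and the 2 Gad1 probe sets then stood at 0.11 (SE 0.07) and 0.16 (SE 0.08). Vehicle 15 is the mouse with the high striatum marker list, and most striatal neurons use GABA too. That list lay between -0.34 and -0.21 in the FTY720 group and between -0.32 and 1.36 in the vehicle group, and the part it plays in the Gad1 and Gad2 values was not tested.

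Lhx6, the LIM homeodomain factor that directs the fate and migration of interneurons of medial origin, was read by 2 probe sets. The brighter (1425094_a_at) gave 6.92, 6.78, 6.72 and 6.88 in FTY720 mice, against 6.67, 6.55, 6.54 and 6.62 in vehicle mice. Every FTY720 mouse was above every vehicle mouse, by a gap of 0.04 between the nearest values. The difference was 0.23 (SE 0.06, limma adjusted p = 0.593), or 1.17-fold. It was 0.21 (SE 0.08) without vehicle 15 and 16. The second probe set (1422262_a_at) was dim, at a mean of 3.61, which is percentile 7.65 of all probe sets, and its groups overlapped, with a difference of 0.04 (SE 0.07). The difference was thus not seen with both probe sets.

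Sst, the somatostatin precursor, marks cells that inhibit the distal dendrites of pyramidal neurons. It was 10.41, 10.28, 10.24 and 10.41 in FTY720 mice, against 10.22, 10.12, 9.88 and 10.22 in vehicle mice. The groups did not overlap, but FTY720 5 and vehicle 13 were 0.02 apart, and vehicle 15 was the lowest mouse. The difference was 0.23 (SE 0.08, limma adjusted p = 0.699), or 1.17-fold, and 0.15 (SE 0.06) without vehicle 15. Centring each array on its brighter probe sets made the groups overlap.

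Pvalb encodes parvalbumin, the calcium buffer of fast-spiking basket and axo-axonic cells. It was 8.98, 9.29, 8.83 and 9.15 in FTY720 mice, against 9.01, 8.75, 8.56 and 9.30 in vehicle mice. The groups overlapped across nearly their whole range, with vehicle 15 lowest and vehicle 16 highest. The difference was 0.16 (SE 0.15, 95% interval -0.18 to 0.50, limma adjusted p = 0.866), with 0.04 without vehicle 15 and 0.29 without vehicle 16.

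Npy encodes neuropeptide Y, which restrains glutamate release and is made by ivy, neurogliaform and many somatostatin cells. It was 9.30, 9.40, 9.24 and 9.18 in FTY720 mice, against 9.38, 9.44, 9.31 and 9.89 in vehicle mice. The difference of -0.23 (SE 0.12, limma adjusted p = 0.750) was the lowest of the 12 and opposite in sign to that of Sst. Vehicle 16 stood well above every other mouse, and without it the difference was -0.10 (SE 0.07). Without vehicle 15 it was -0.29 (SE 0.12), which put Npy lower at an unadjusted p under 0.05, and without both it was -0.13 (SE 0.07). Values in the remaining mice overlapped. Sst and Npy, which many cells hold together, therefore stood on opposite sides of 0, and no test of that contrast was made.

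Htr3a, a subunit of the only serotonin receptor that is an ion channel, marks interneurons of caudal origin. It was 6.97, 6.90, 6.97 and 7.03 in FTY720 mice, against 6.77, 6.65, 6.76 and 6.69 in vehicle mice. The groups were 0.14 apart at their nearest values, and each had an SD of 0.05 or 0.06. The difference was 0.25 (SE 0.05, 95% interval 0.13 to 0.37, limma adjusted p = 0.592), or 1.19-fold. Of the 12 probe sets this had the smallest unadjusted p, at place 26 among the 22626. It moved little with the doubted mice, at 0.26 (SE 0.06) without vehicle 15 and 0.26 (SE 0.06) without both.

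Vip, vasoactive intestinal peptide, marks cells many of which inhibit other interneurons and so release pyramidal cells from inhibition. It was 9.15, 9.15, 8.86 and 9.11 in FTY720 mice, against 8.76, 8.80, 8.13 and 9.56 in vehicle mice. Vehicle 15 had the lowest and vehicle 16 the highest value of all mice, and the SD was 0.14 in FTY720 mice and 0.59 in vehicle mice. The difference was 0.26 (SE 0.24, 95% interval -0.27 to 0.79, limma adjusted p = 0.863). It was 0.03 without vehicle 15, 0.51 without vehicle 16 and 0.29 (SE 0.09) without both. Vehicle 16 also had the highest neocortex marker list, 0.56, where FTY720 mice lay between -0.15 and -0.03 and the other vehicle mice between -0.10 and 0.01. That list's part in the Vip and Npy values was not tested.

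Cnr1, the cannabinoid receptor CB1, sits on terminals of cholecystokinin basket cells and, at lower density, of pyramidal cells, where it suppresses transmitter release. It was 6.85, 6.99, 6.92 and 7.002 in FTY720 mice, against 6.65, 6.67, 6.44 and 6.25 in vehicle mice. All FTY720 mice were above all vehicle mice, with 0.18 between the nearest values, and vehicle 16 and 15 were lowest. The difference of 0.44 (SE 0.09, 95% interval 0.23 to 0.64, limma adjusted p = 0.592), or 1.35-fold, was the highest of the 12. Without vehicle 15 and 16 it was 0.28 (SE 0.06), smaller by over 1.5 times, with the groups still apart.

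Reln encodes reelin, the secreted glycoprotein of neurogliaform and many somatostatin cells and also of Cajal-Retzius cells along the hippocampal fissure. It was 10.54, 10.40, 10.68 and 10.44 in FTY720 mice, against 10.51, 10.38, 9.997 and 9.84 in vehicle mice. Vehicle 13 and 14 lay within or just below the FTY720 range, and vehicle 15 and 16 lay well below it. The difference was 0.33 (SE 0.14, limma adjusted p = 0.708) with all mice, 0.27 without vehicle 15, 0.22 without vehicle 16 and 0.07 (SE 0.09) without both. Of the 7 measured genes of a Cajal-Retzius list, which holds Reln itself, the defining Trp73 was 5.88 ± 0.14 in FTY720 mice and 5.84 ± 0.07 in vehicle mice (SD, n = 4 each). Of the 7 genes, 3 were higher in FTY720 mice, Reln and Trp73 among them, and 4 lower, with a median difference of -0.07. Calb2 and Cxcl12, among the lower, differed by -0.26 (SE 0.40) and -0.17 (SE 0.08). The list mean spanned -0.17 to 0.18 over the FTY720 mice and -0.29 to 0.31 over the vehicle mice.

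**Figure D2:**
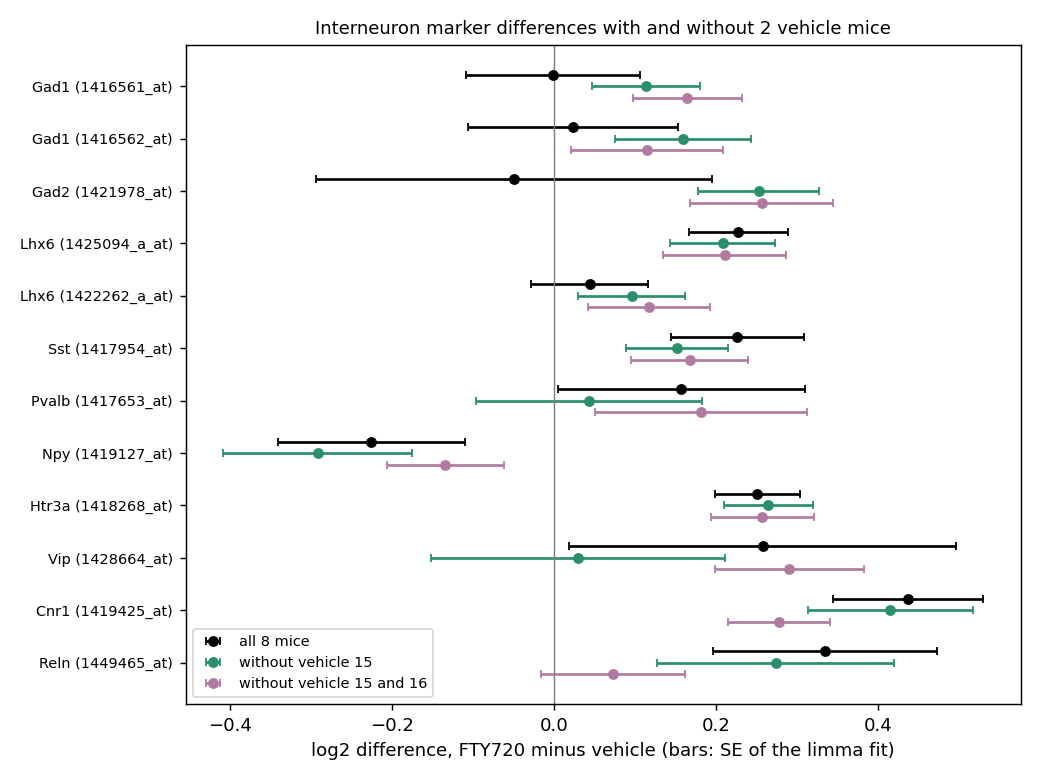
Log2 difference (FTY720 minus vehicle, x axis) of each interneuron probe set, with the SE of the limma fit, for all 8 mice (black), without vehicle 15 (green) and without vehicle 15 and 16 (purple). Htr3a, Cnr1 and the brighter Lhx6 probe set stay between 0.21 and 0.44 in all 3 fits, Gad2 stands at -0.05 with all mice and 0.25 without vehicle 15, and Reln stands at 0.07 without both.

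Read mouse by mouse, with the brighter probe set of each gene, vehicle 15 had the lowest value of 4 genes and the highest of 2, Gad1 and Gad2. Vehicle 16 had the highest value of 3 genes, Pvalb, Npy and Vip, and the lowest of 2, Cnr1 and Reln. FTY720 mice had between 6 and 9 of the 10 genes above the gene's own mean over all mice, against 2 or 3 in each vehicle mouse. This count restates the group differences of genes chosen with earlier results known, and it was not made over all genes. Single far values also shift that mean, with Gad2 0.93 above it in vehicle 15 and Npy 0.49 above it in vehicle 16. The interneuron genes did not all move one way in vehicle 15 or in vehicle 16. Pan-neuronal markers such as Snap25, a synaptic fusion protein, had list means from -0.03 to 0.05 in FTY720 mice and from -0.05 to 0.05 in vehicle mice (10 genes), while the oligodendrocyte list differed by -0.35 between the group means. Hippocampal pyramidal markers (8 of 12 measured) had list means from 0.01 to 0.17 in FTY720 mice and from -0.31 to 0.10 in vehicle mice. Their group means differed by 0.19, with 6 genes higher and 2 lower. Vehicle 15 had the lowest of these list means, -0.31, and the difference was not read without that mouse. Grp, higher by 0.80 (SE 0.21), was the 1 gene of the list at an unadjusted p under 0.05, where 3.57% of all genes were higher at that p. Higher values in FTY720 mice were thus not limited to the interneuron genes.

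**Figure D3:**
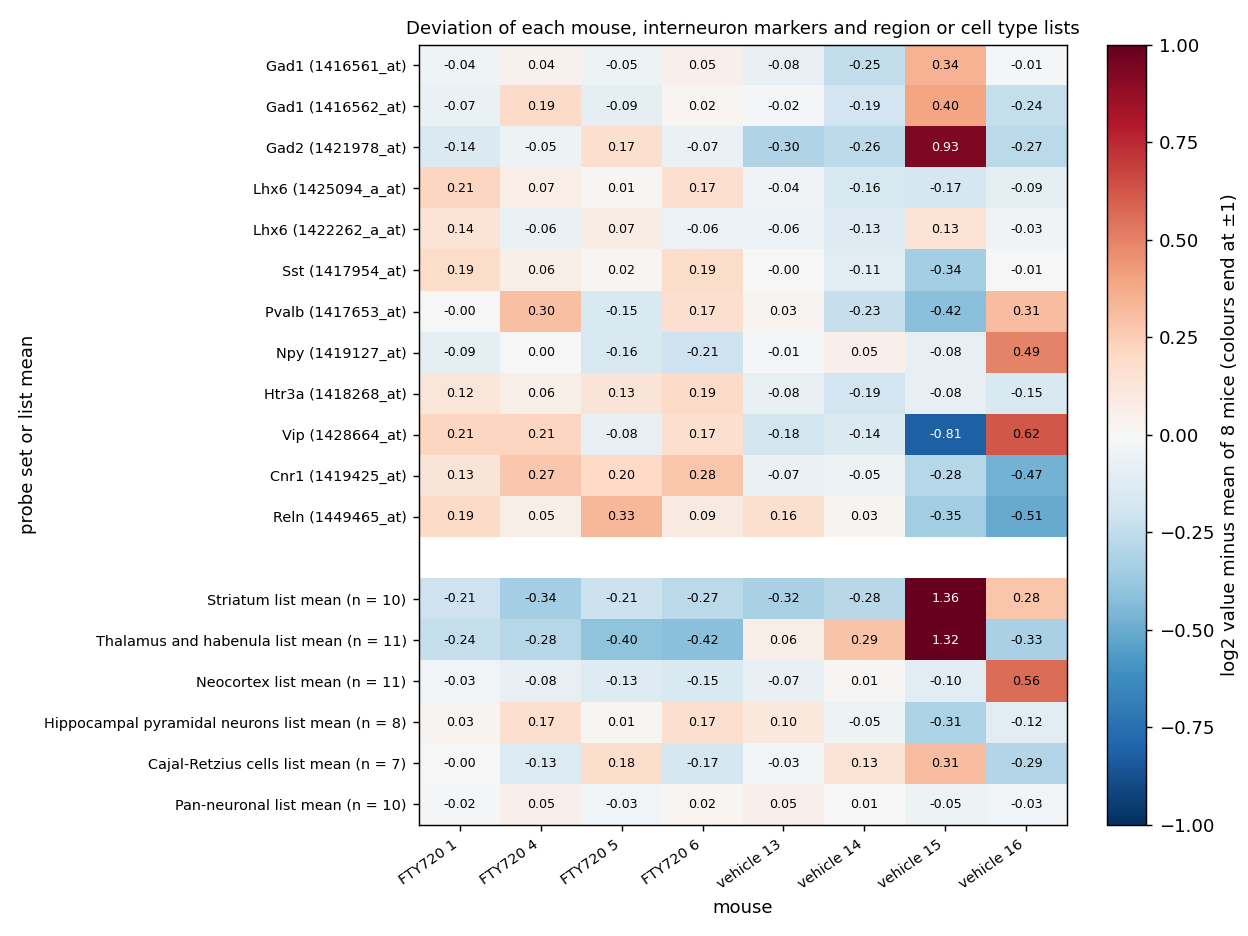
Log2 value minus the mean of all 8 mice, for each interneuron probe set and for the mean of 6 lists of regional or cell type markers (rows) in each mouse (columns), with colours ending at ±1. Vehicle 15 is highest for Gad1, Gad2 and the striatum and thalamus lists and lowest for Sst, Pvalb and Vip, and vehicle 16 is highest for Npy, Vip and the neocortex list.

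Genes around these markers were read from lists, 1 brightest probe set per gene, where 6.26% of all 12393 genes had an unadjusted p under 0.05, 3.57% higher and 2.70% lower. None of the genes named from these lists passed adjustment. Among genes of interneurons of caudal origin, 18 were measured and 6 were higher at that p, with none lower. Of these, 3 belong to the marker set (Htr3a, Cnr1 and Reln), and the other 14 measured genes had 9 higher, 5 lower and a median difference of 0.02, against 0.01 over all genes. Without vehicle 15 and 16 the list of 18 had 4 genes higher and 1 lower at that p, which 5.36% of all genes reached. Kit, a receptor tyrosine kinase of neurogliaform cells, was 8.51, 8.68, 8.600 and 8.83 in FTY720 mice, against 8.35, 8.19, 7.46 and 8.38 in vehicle mice. The groups did not overlap, and vehicle 15 was far below the other mice. The difference was 0.56 (SE 0.18, limma adjusted p = 0.690), or 0.35 without vehicle 15.

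Nr2f2, the orphan nuclear receptor COUP-TFII that specifies caudal-derived interneurons, was 9.45, 8.72, 9.25 and 9.10 in FTY720 mice, against 8.96, 8.78, 8.34 and 8.19 in vehicle mice. The groups overlapped through FTY720 4, and vehicle 15 and 16 were lowest, as for Cnr1 and Reln. The difference was 0.56 (SE 0.19, limma adjusted p = 0.690), or 0.26 without both mice. Prox1, a homeobox gene also strong in dentate granule cells, differed by 0.18 (SE 0.08). Its probe set was dim, at percentile 4.40 of all probe sets, so it may not report the gene's level.

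Genes of interneurons of medial origin had 15 measured members, of which 3 were higher and none lower at an unadjusted p under 0.05. Besides Lhx6 and Sst this was Nos1, the neuronal nitric oxide synthase of ivy and neurogliaform cells. Nos1 was 7.83, 7.51, 7.70 and 7.71 in FTY720 mice, against 7.63, 7.55, 7.28 and 7.10 in vehicle mice. The difference was 0.30 (SE 0.12, limma adjusted p = 0.699). It was 0.10 without vehicle 15 and 16, which held the lowest values. The list then had 2 genes higher at that p, which 5.36% of all genes reached in this setting. Tac1, the substance P precursor, and Lhx8, a factor of forebrain cholinergic neurons, had differences of -0.88 (SE 0.59) and -0.98 (SE 0.71). Both rested on vehicle 15, at 12.52 for Tac1 and 6.83 for Lhx8, and stood at -0.15 and -0.08 without it.

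GABA synthesis and transport genes (6 measured, Gad1 and Gad2 among them) and pan-interneuron genes (10 measured, both again included) had none at an unadjusted p under 0.05. Slc32a1, the transporter that loads GABA into vesicles, was 8.91, 8.92, 9.04 and 8.95 in FTY720 mice, against 8.78, 8.77, 9.80 and 8.95 in vehicle mice. As for Gad2, vehicle 15 was far above the rest, and the difference of -0.12 (SE 0.20) with all mice was 0.12 without it. Abat, which breaks GABA down, differed by -0.13 (SE 0.15) and the amino acid carrier Slc38a1 by 0.09 (SE 0.06). Dlx2, a homeobox factor of interneuron precursors, differed by 0.11 (SE 0.10), its relative Dlx6 by -0.24 (SE 0.21) and the secreted Nxph1 by 0.12 (SE 0.10). Without vehicle 15 the pan-interneuron list had 4 genes higher at that p and a median of 0.14, against -0.06 with all mice. Gad2 itself is 1 of the 4, and 6.71% of all genes reached that p in this setting, with a median of 0.0021. The GABA list had 1 gene higher without vehicle 15, Gad2, and 3 without both, of which 2 are Gad1 and Gad2 (5.36% of all genes). Leaving mice out of these list counts was added after the data were seen.

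**Figure D4:**
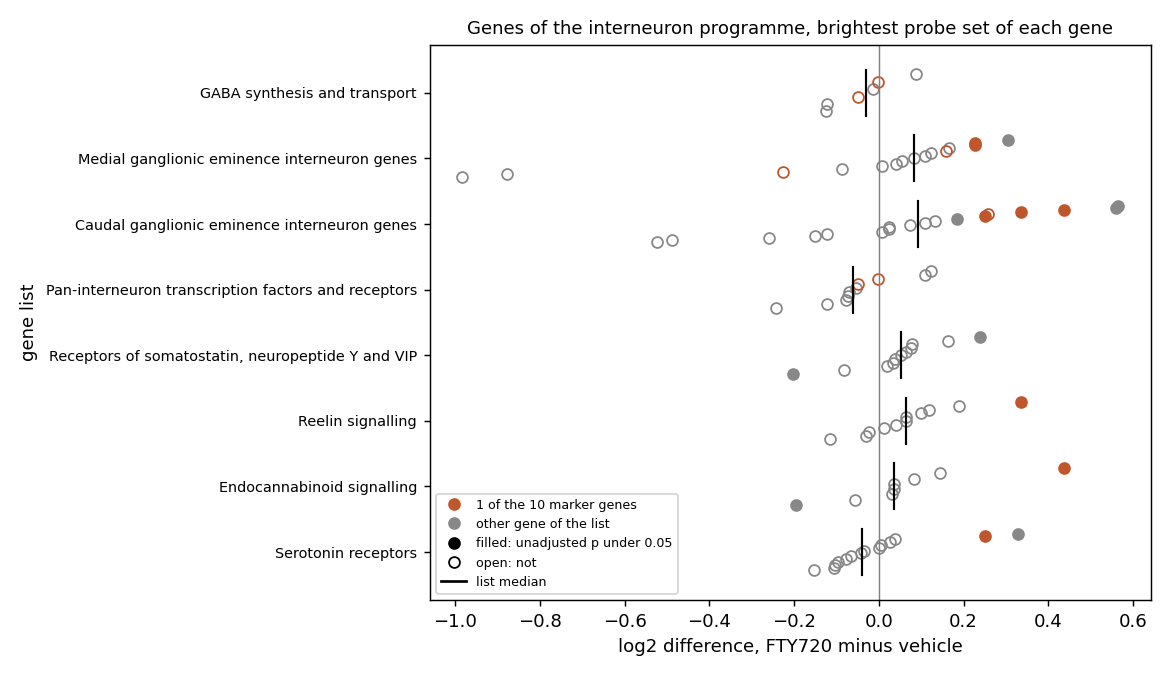
Log2 difference (FTY720 minus vehicle, x axis) of each measured gene in 8 lists around the interneuron markers (rows), by the brightest probe set, with the 10 marker genes in orange, other genes in grey, filled points at an unadjusted p under 0.05 and list medians as black lines. The list of caudal origin holds 6 filled points, all above 0, and the GABA and pan-interneuron lists hold none.

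Receptors for the 3 peptides had 11 measured genes, 1 higher and 1 lower at an unadjusted p under 0.05. Vipr2, a VIP receptor, was 5.31, 5.26, 5.18 and 5.22 in FTY720 mice, against 5.41, 5.57, 5.31 and 5.48 in vehicle mice. All FTY720 mice were below all vehicle mice, though FTY720 1 and vehicle 15 had nearly the same value, and the difference was -0.20 (SE 0.06, limma adjusted p = 0.685). Npy2r, the presynaptic neuropeptide Y receptor, was 8.13, 8.01, 8.29 and 8.38 in FTY720 mice, against 7.995, 8.02, 7.99 and 7.85 in vehicle mice. FTY720 4 overlapped vehicle 14, and the difference was 0.24 (SE 0.08, limma adjusted p = 0.699). Npy1r, the main postsynaptic receptor of the peptide, differed by 0.16 (SE 0.11), and by 0.06 without vehicle 15.

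Of 11 measured reelin pathway genes, Reln was the 1 at an unadjusted p under 0.05, and none was without vehicle 15. Its receptors Lrp8 and Vldlr differed by 0.19 (SE 0.09) and -0.12 (SE 0.09), and the adaptor Crkl by 0.12 (SE 0.07). Of 8 measured endocannabinoid genes, Cnr1 was higher and Daglb lower at that p. Without vehicle 15, 2 were higher and 2 lower, where 6.71% of all genes reached that p. Daglb, a lipase that makes the cannabinoid 2-arachidonoylglycerol, was 6.42, 6.55, 6.48 and 6.41 in FTY720 mice, against 6.64, 6.71, 6.42 and 6.86 in vehicle mice. Vehicle 15 lay inside the FTY720 range, and the difference was -0.20 (SE 0.09, limma adjusted p = 0.732), or -0.27 without that mouse. Cnr2, the cannabinoid receptor of immune cells, differed by 0.15 (SE 0.07) at a low level, 3.82 on average, and Faah, which degrades anandamide, by 0.08 (SE 0.08).

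Serotonin receptors and the serotonin transporter Slc6a4 had 14 measured genes, 2 of them higher at an unadjusted p under 0.05, Htr3a and Htr1a. Htr1a, an inhibitory receptor of pyramidal cells, was 7.61, 7.68, 7.56 and 7.44 in FTY720 mice, against 7.54, 7.43, 6.95 and 7.05 in vehicle mice. Vehicle 13 lay inside the FTY720 range and vehicle 15 and 16 far below it, and the difference of 0.33 (SE 0.13, limma adjusted p = 0.699) was 0.08 without those 2 mice. Htr7 and Htr1d differed by -0.15 (SE 0.10) and -0.10 (SE 0.09). The list had a median of -0.04, and 1 gene higher at that p, Htr3a, without vehicle 15.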

How the data were processed

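Hippocampal RNA from 8 mice (100 ng each, per the labels) was measured on 1 Affymetrix 3′ array per mouse. The deposited values are log2 levels per probe set, a scale read from their range of 2.31 to 14.5. Affymetrix Expression Console, MAS5 and RMA appear in the submitters' processing notes, with no role stated. No build, slide or scan date was given, so no batch was tested.

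Of 22690 probe sets, 64 controls were removed and 22626 tested without a filter; 20380 had 1 gene symbol. FTY720 was compared with vehicle by limma 3.58.1 in R 4.3.3 (lmFit, eBayes), with Benjamini-Hochberg adjustment over all probe sets. SE and 95% intervals are those of the fit. The median SE was 0.07, and the number of arrays limits precision. The fit was tested on simulated data. Separate mice are the replicates.

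The marker genes and lists were chosen with earlier results of these data known. All marker probe sets were named, with the 3 other genes of smallest unadjusted p in each list. List members without a probe set of their own were not analysed here. Alternatives covered normalization, centring, a filter on dim probe sets, 1 probe set per gene, variance models, array weights and leaving out mice.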

Additional observations from a re-analysis of the deposited data

Results flagged for a closer look

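2 values stood far from their group by Dixon's test, run on 24 groups of 4 mice, of which chance gives about 1 in 20. Gad2 was 9.12 in vehicle 15, where the other vehicle mice lay between 7.89 and 7.93. Vip was 8.86 in FTY720 5, where the other FTY720 mice were between 9.11 and 9.15.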

How the results depend on the processing

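No probe set passed an adjusted p of 0.05 by limma in any of 16 alternatives, although 1529 had an unadjusted p under 0.05 with all mice. That count was 969 among the 11313 probe sets above the median level and 823 with 1 probe set per gene, both of which test fewer features. When 1 mouse was left out, the interneuron probe sets at that p numbered between 3 and 6. There were 3 without FTY720 1, where Sst and Reln were lost and 5.80% of all probe sets reached that p. There were 6 without vehicle 15, against 6.89% of all probe sets. Npy was lower and 5 were higher, namely Htr3a, Cnr1, the brighter Lhx6 probe set, Sst and Gad2, while Reln was lost. Those without overlap numbered 7 without vehicle 15 and 16 (14.2% of all probe sets), where fewer samples make separation more common. Htr3a, Cnr1 and the brighter Lhx6 probe set kept an unadjusted p under 0.05 and separate groups in all 16 alternatives. Sst kept that p in 14 and separate groups in 15, and Reln in 10 and 1. Most alternatives could not make separate groups overlap, since they kept the values or left out mice. Only quantile normalization and centring could, and centring did so for Sst. Signs turned for Gad1 and Gad2 alone, in 11 of 189 values. With array weights the brighter Gad1 probe set stood at 0.059 and Gad2 at 0.12, and without vehicle 15 and 16 at 0.16 and 0.26. With 1 mouse left out, the Gad1 probe sets ranged from -0.083 to 0.11 and from -0.052 to 0.16, and Gad2 from -0.16 to 0.25. No paired analysis was possible because the replicate numbers differ between the groups. Dim probe sets limit the second Lhx6 reading and Prox1. The 3 probe sets that held in all 16 alternatives were themselves close to the median level. Their percentiles were 52.3 for Htr3a, 50.5 for Cnr1 and 50.2 for the brighter Lhx6 probe set.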

Other observations

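Other markers of interneuron subtypes, chosen after their values were seen, also had their extreme values in single vehicle mice. Lamp5, of neurogliaform cells and also on the neocortex list, was 9.32, 9.34, 9.31 and 9.05 in FTY720 mice, against 9.51, 9.50, 9.39 and 10.57 in vehicle mice. All FTY720 mice were lower, and the difference was -0.49 (SE 0.23, limma adjusted p = 0.732), or -0.21 without vehicle 16. Calb2, the calcium buffer calretinin, ranged from 8.05 to 8.61 in FTY720 mice and from 7.38 (vehicle 16) to 9.73 (vehicle 15) in vehicle mice. Its difference was -0.26 with all mice, 0.13 without vehicle 15, -0.66 without vehicle 16 and -0.28 without both. Cck, the cholecystokinin precursor of the basket cells that carry Cnr1, was between 11.39 and 11.52 in FTY720 mice and between 10.88 (vehicle 15) and 11.53 in vehicle mice. The Cck difference was 0.13 (SE 0.13) with all mice and -0.02 without vehicle 15, while that of Cnr1 was 0.42 without that mouse.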
